A study of Homo sapiens with 6 samples.

Results

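The cell-surface and matrix proteoglycans SDC1, SDC2, SDC3, SDC4, GPC1, GPC4, AGRN, HSPG2, VCAN and SRGN were followed in AsPC-1, a long-used cell line from a human pancreatic cancer, with and without overexpression of MMP28, a secreted matrix metalloproteinase. These 10 genes were listed by name, out of the 58735 genes of the deposited table, by a rule that used no measured value, although earlier results of these data were known when the list was drawn up. RNA was sequenced from 3 libraries of cells that received empty lentivirus (Vector) and 3 libraries of cells that received MMP28-overexpressing lentivirus (OE-MMP28). The Vector samples carried the genotype label WT and the OE-MMP28 samples one of MMP28 overexpression. The study's methods described a lentiviral vector with GFP and puromycin resistance and selection of stable cells with puromycin, so Vector cells also passed through infection and selection. The comparison rests on 1 cell line. The labels did not state whether the 3 libraries of a group came from separate cultures, so p-values measure only the spread between these libraries, which may be technical. In bulk RNA, fewer cells with a transcript and less transcript per cell cannot be told apart.

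Proteoglycans are core proteins that carry long sulfated sugar chains. The syndecans cross the membrane and the glypicans are tethered to it by a lipid anchor, and both hold growth factors and other ligands at the cell surface through heparan sulfate. Perlecan (HSPG2) and agrin (AGRN) are large heparan sulfate proteoglycans of basement membranes, the thin matrix sheets under epithelia. Versican (VCAN) is a large chondroitin sulfate proteoglycan that binds hyaluronan in looser matrix, and serglycin (SRGN) is packed into secretory granules, chiefly in blood cells. Syndecan-1 (SDC1) is the main syndecan of epithelial cells and can be cut from the surface by proteases.

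The genes that passed the test did not share a direction. HSPG2 and AGRN rose in OE-MMP28 cells, by 1.65-fold and 1.60-fold, whereas SDC1 fell to 0.707-fold of the Vector level. Neither HSPG2 nor AGRN passed without OE-MMP28 replicate 2, and the fall of SDC1 was no larger than the median fall of the genes around it. SDC3, GPC1 and VCAN did not pass the test, SDC4 missed the threshold narrowly, and SDC2, GPC4 and SRGN had at most 2 reads in any library. The test was edgeR's quasi-likelihood F test on read counts with Benjamini-Hochberg adjustment over the 15319 genes that passed a filter on low counts, and an adjusted p under 0.05 counted as passing.

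Total counts ran from 13633249 to 16691458 per library, so a gene without any read could still be present at up to 0.180 to 0.220 CPM (reads scaled to library size). This limit is set at 3 reads and covers counting error only. Mitochondrial genes took 11.9%, 14.5% and 14.8% of counts in the Vector libraries and 11.5%, 8.80% and 11.9% in the OE-MMP28 libraries. MMP28 measured 5.17, 9.11 and 8.43 FPKM (fragments scaled to gene length and library size) in the Vector libraries and 13.1, 13.9 and 15.1 FPKM in the OE-MMP28 libraries. Every OE-MMP28 library lay above every Vector library, with a log2 fold change of 0.90 (SE 0.19, n = 3 per group, edgeR adjusted p = 0.00226). An exact two-sided permutation test of these FPKM values gave p = 0.1, the smallest that 3 against 3 libraries allow. All 5 epithelial markers checked (KRT7, KRT8, KRT18, KRT19 and EPCAM) were expressed, with sums of 2562 to 3498 FPKM in Vector and 3503 to 4294 FPKM in OE-MMP28 cells, and 1 of them, KRT19, rose. In contrast, none of 6 fibroblast markers passed the low-count filter and their summed level reached at most 0.131 FPKM. Of 6 leukocyte markers 2 were tested and 1 fell, LYZ, which some epithelia also express and which averaged 176 FPKM in Vector and 128 FPKM in OE-MMP28 cells, while the pan-leukocyte marker PTPRC reached at most 0.0081 FPKM. The 4 endothelial markers summed to 0.044 to 0.170 FPKM in Vector and 0.179 to 0.293 FPKM in OE-MMP28 cells. Of these, 2 were tested and 1 rose, PECAM1, from 0, 4 and 4 reads in Vector to 13, 21 and 30 reads in OE-MMP28 libraries (log2 fold change 2.79, edgeR adjusted p = 0.00361). The part of these markers in the results was not tested.

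Of the 10 proteoglycan genes, 7 passed the low-count filter and 3 of these passed the test, 2 higher and 1 lower in OE-MMP28 cells. Over all tested genes, 11.7% were called higher, 11.6% lower and 23.4% in either direction. The groups did not overlap in FPKM for 2 of the 7 genes, SDC1 and HSPG2, against 38.1% of all tested genes. The median log2 fold change was -0.024 over the 7 genes and 0.014 over all tested genes, and with 7 genes these counts are a description only.

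**Figure D1:**
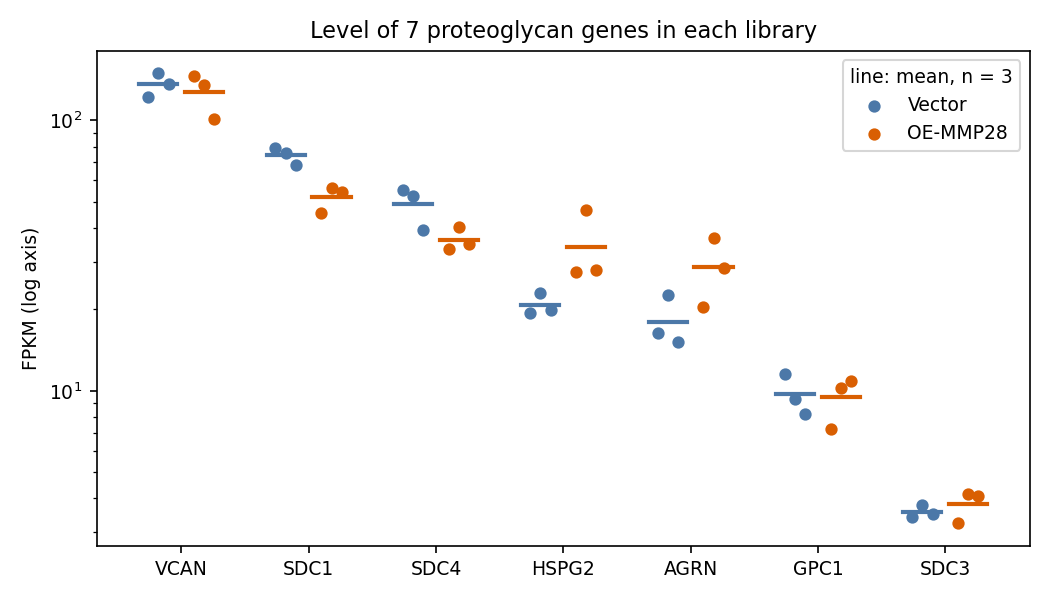
Level of the 7 tested proteoglycan genes in each library, in FPKM on a logarithmic vertical axis. Points run from left to right for replicates 1 to 3 of Vector and of OE-MMP28, with a line at each group mean. All 3 OE-MMP28 libraries lie below the Vector libraries for SDC1 and above them for HSPG2. SDC2, GPC4 and SRGN are not drawn.

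Among the syndecans, SDC1 was the most abundant. SDC1 (ENSG00000115884, GRCh38 chr2:20200797-20225433, minus strand) measured 79.4, 75.6 and 68.2 FPKM in the Vector libraries and 45.6, 56.4 and 54.3 FPKM in the OE-MMP28 libraries, from 2591 to 4363 reads per library. The groups did not overlap, and OE-MMP28 replicate 1 was the lowest of all. The mean went from 74.4 ± 5.68 FPKM to 52.1 ± 5.76 FPKM (SD, n = 3 each). The log2 fold change was -0.50 (SE 0.15, 95% interval -0.81 to -0.19, edgeR adjusted p = 0.0181), and SDC1 passed the test in each of the 6 fits that left out 1 library.

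Genes around SDC1 were also lower in OE-MMP28 cells. Within 10 Mb of SDC1 on chromosome 2, 99 other genes were tested, with a median log2 fold change of -0.52, and 90 of them (90.9%) had values below 0. Of these neighbours, 41 were called lower and 3 higher, and 53 had a log2 fold change at or below that of SDC1. When each gene was measured against the median of its neighbours, SDC1 stood at 0.019 on the log2 scale with an edgeR adjusted p of 0.953. The fall of SDC1 was therefore no larger than that of its chromosomal neighbourhood. What lay behind the shift of this region was not tested.

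SDC4, the syndecan enriched at focal adhesions, was the next most abundant family member. SDC4 (ENSG00000124145, chr20:45325288-45348424, minus strand) measured 55.5, 52.5 and 39.3 FPKM in Vector and 33.5, 40.2 and 34.9 FPKM in OE-MMP28 cells. Vector replicate 3 lay below OE-MMP28 replicate 2, so the groups overlapped, and the other 2 Vector libraries were above all OE-MMP28 libraries. The means were 49.1 ± 8.58 and 36.2 ± 3.53 FPKM (SD, n = 3 each). The log2 fold change of -0.43 (SE 0.16, 95% interval -0.76 to -0.094) had an edgeR adjusted p of 0.0580 and did not pass. SDC4 did pass under 7 of 19 alternative settings, always as lower, among them DESeq2 (log2 fold change -0.45, adjusted p = 0.0374) and the edgeR fit without Vector replicate 3 (-0.56, adjusted p = 0.0415). The 148 tested neighbours of SDC4 had a median log2 fold change of -0.087, with 16 called lower and 8 higher.

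SDC3, a syndecan best known from the nervous system, was scarce. SDC3 (ENSG00000162512, chr1:30869467-30908761, minus strand) measured 3.42, 3.79 and 3.51 FPKM in Vector and 3.24, 4.16 and 4.08 FPKM in OE-MMP28 cells. The groups overlapped, with OE-MMP28 replicate 1 below every Vector library. The log2 fold change was 0.11 (SE 0.17, 95% interval -0.24 to 0.46, edgeR adjusted p = 0.677). SDC2 (ENSG00000169439, chr8:96493351-96611780), the syndecan typical of mesenchymal cells, had no read in any of the 6 libraries, which leaves a level of up to 0.180 to 0.220 CPM per library.

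The summed level of the 4 syndecans was 138, 132 and 111 FPKM in the Vector libraries and 82.4, 101 and 93.3 FPKM in the OE-MMP28 libraries. The groups did not overlap in this sum. SDC1 made up 58.7% ± 2.34 of the sum in Vector and 56.5% ± 1.52 in OE-MMP28 cells, and SDC4 38.5% ± 2.63 and 39.3% ± 1.74 (SD, n = 3 each). SDC3 contributed 2.84% ± 0.349 and 4.14% ± 0.221. SDC1 and SDC4 thus kept nearly the same proportion to each other while their sum was lower in OE-MMP28 cells, a description without a test.

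Upstream sequence of SDC1, SDC4 and HSPG2 is printed to show, next to one another, the starts of the most abundant syndecans and of the basement membrane gene with the largest increase. RefSeq start sites on GRCh38.p14 matched 7 of the 10 genes, with a second start for SDC1. Each line below runs 5′ to 3′ over the 250 bases before the start, on the minus strand as all 3 genes are, and capitals mark the GC box, searched as GGGCGG on either strand (CCGCCC on the other).
SDC1 (chr2:20225476-20225725): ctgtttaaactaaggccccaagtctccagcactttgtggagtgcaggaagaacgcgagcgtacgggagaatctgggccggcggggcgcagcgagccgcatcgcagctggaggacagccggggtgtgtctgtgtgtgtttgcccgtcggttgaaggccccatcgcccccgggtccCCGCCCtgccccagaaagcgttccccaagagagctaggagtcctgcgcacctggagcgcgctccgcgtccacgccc
SDC4 (chr20:45348425-45348674): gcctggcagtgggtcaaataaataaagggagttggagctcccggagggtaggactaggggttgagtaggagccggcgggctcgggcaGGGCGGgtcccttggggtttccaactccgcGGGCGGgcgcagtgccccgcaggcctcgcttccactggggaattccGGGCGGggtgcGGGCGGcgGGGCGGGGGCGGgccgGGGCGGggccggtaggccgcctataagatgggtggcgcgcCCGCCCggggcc
HSPG2 (chr1:21937311-21937560): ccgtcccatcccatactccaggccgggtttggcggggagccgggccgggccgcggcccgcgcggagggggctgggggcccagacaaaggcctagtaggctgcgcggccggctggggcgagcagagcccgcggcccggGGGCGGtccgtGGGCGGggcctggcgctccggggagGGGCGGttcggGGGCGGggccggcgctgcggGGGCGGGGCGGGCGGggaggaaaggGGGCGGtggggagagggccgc
The SDC1 stretch held 1 GC box, SDC4 held 8 and HSPG2 held 8, counting overlapping matches. GC content was 66.4% for this SDC1 start, 73.6% for SDC4 and 82.8% for HSPG2. The second SDC1 start, not printed, had 75.2% GC and 1 GC box. The same search found 5 GC boxes before SDC3, 4 before GPC1, 2 before GPC4 and 1 before VCAN, and a GC box occurred in 42.6% of 35116 RefSeq windows of this length. The letters TATAA (or TTATA on the other strand) occurred before SDC4 and VCAN and in 18.9% of all windows. An E-box (CACGTG) and the AP-1 motif (TGACTCA or its complement) were in none of the matched windows, against 6.34% and 4.20% of all windows. SDC4 and HSPG2 had equal numbers of GC boxes, and whether such numbers go with the fold changes was not tested. A match describes letters only and is no evidence of binding.

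Of the 2 glypicans among the 10 genes, only GPC1 was detected. GPC1 (ENSG00000063660, chr2:240435671-240468078, plus strand), the glypican often found in pancreatic tumors, measured 11.5, 9.36 and 8.20 FPKM in Vector and 7.21, 10.2 and 10.9 FPKM in OE-MMP28 cells. The groups overlapped over most of their range, and OE-MMP28 replicate 1 was again the lowest library. The log2 fold change was -0.024 (SE 0.18, 95% interval -0.40 to 0.35, edgeR adjusted p = 0.944), and its sign changed when Vector replicate 1 or OE-MMP28 replicate 1 was left out. The 88 tested neighbours of GPC1, at the other end of chromosome 2 from SDC1, had a median log2 fold change of -0.31, with 22 called lower and 1 higher. Against that median GPC1 stood at 0.29 on the log2 scale (edgeR adjusted p = 0.303). GPC4 (ENSG00000076716, chrX:133300103-133415490) had no read in any library, with the same limit as SDC2.

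**Figure D2:**
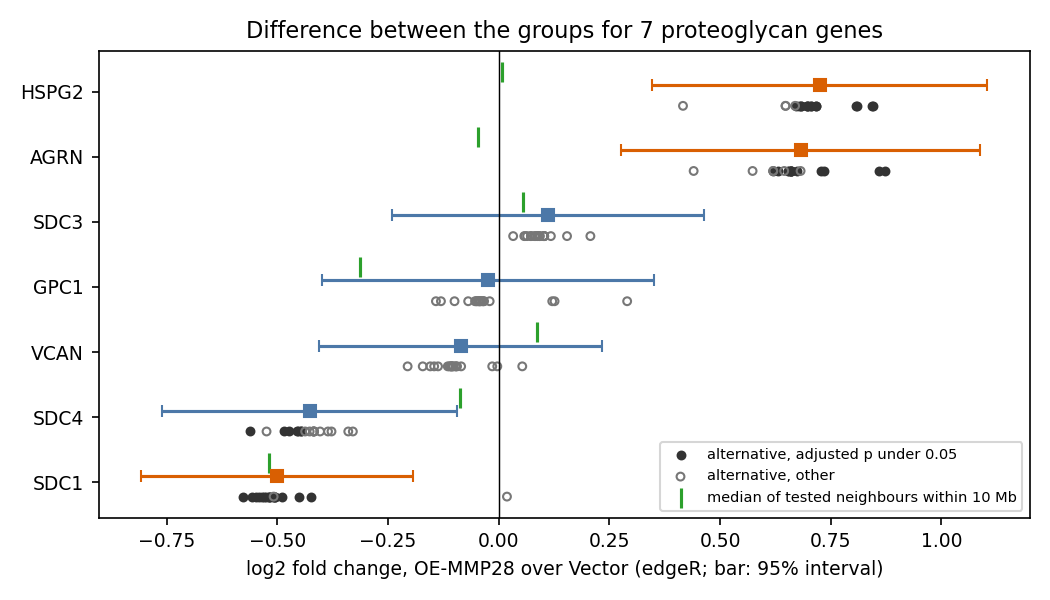
Log2 fold change (OE-MMP28 over Vector) of the 7 tested proteoglycan genes, with squares and bars for the edgeR value and its 95% interval, orange where the adjusted p was under 0.05, dots for the 19 alternative settings (filled where they passed) and a green tick at the median of the tested neighbours within 10 Mb. The SDC1 interval, -0.81 to -0.19, includes its neighbours' median of -0.52, whereas the intervals of HSPG2 and AGRN lie above their neighbours' medians.

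Both basement membrane proteoglycans among the 10 genes rose. HSPG2 (ENSG00000142798, chr1:21822245-21937297, minus strand) measured 19.4, 23.1 and 19.9 FPKM in the Vector libraries and 27.5, 46.5 and 28.1 FPKM in the OE-MMP28 libraries. The groups did not overlap, and OE-MMP28 replicate 2 stood well above the other 5 libraries. The mean went from 20.8 ± 2.01 to 34.0 ± 10.8 FPKM (SD, n = 3 each). The log2 fold change was 0.73 (SE 0.18, 95% interval 0.35 to 1.10, edgeR adjusted p = 0.00675). Without OE-MMP28 replicate 2 it was 0.42 with an adjusted p of 0.119, so the call rests on that library. Of the exon bases of HSPG2, 11.7% are shared with LDLRAD2 on the opposite strand, which had 25 to 52 reads. The strand setting of the counting is not given in the sources used here.

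The increase of AGRN was similar in size and less clean. AGRN (ENSG00000188157, chr1:1020123-1056118, plus strand) measured 16.4, 22.5 and 15.2 FPKM in Vector and 20.4, 36.9 and 28.6 FPKM in OE-MMP28 cells. Vector replicate 2 lay above OE-MMP28 replicate 1, so the groups overlapped, and OE-MMP28 replicate 2 was again the highest. The means were 18.02 ± 3.95 and 28.6 ± 8.21 FPKM (SD, n = 3 each), and the log2 fold change was 0.68 (SE 0.19, 95% interval 0.28 to 1.09, edgeR adjusted p = 0.0150). AGRN did not pass without Vector replicate 3 (0.57, edgeR adjusted p = 0.0722), without OE-MMP28 replicate 2 (0.44, 0.172) or without OE-MMP28 replicate 3 (0.68, 0.0504). Neither HSPG2 nor AGRN passed in limma on log2(FPKM + 1), where the log2 fold changes were 0.65 (adjusted p = 0.0752) and 0.62 (adjusted p = 0.111).

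Neither the region around HSPG2 nor that around AGRN was shifted. The 206 tested neighbours of HSPG2 had a median log2 fold change of 0.0077 and the 140 of AGRN one of -0.046. Measured against these medians, HSPG2 stood at a log2 value of 0.72 (edgeR adjusted p = 0.0107) and AGRN at 0.73 (0.0148). Both transcripts are rich in G and C, at 64.5% for HSPG2 and 67.5% for AGRN, and with an offset for GC content and length, added after the data were seen, the log2 fold changes were 0.81 (edgeR adjusted p = 0.00092) and 0.74 (0.000596).

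**Figure D3:**
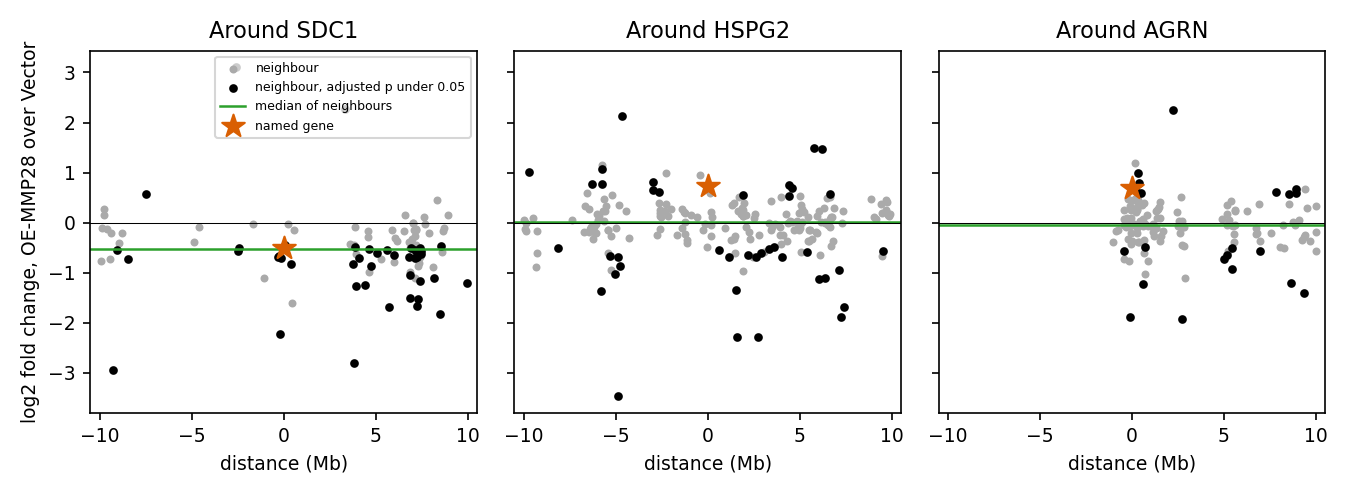
Log2 fold change (OE-MMP28 over Vector, vertical axis) of each tested gene within 10 Mb of SDC1, HSPG2 and AGRN against its distance in Mb from that gene. Most of the 99 neighbours of SDC1 lie below 0, with a median of -0.52, while the neighbours of HSPG2 and AGRN scatter around 0.

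HSPG2 and AGRN together measured 35.7, 45.6 and 35.01 FPKM in the Vector libraries and 47.9, 83.3 and 56.6 FPKM in the OE-MMP28 libraries. Every OE-MMP28 sum was above every Vector sum, although Vector replicate 2 came close to OE-MMP28 replicate 1. The ratio of HSPG2 to AGRN was 1.17 ± 0.143 in Vector and 1.197 ± 0.190 in OE-MMP28 cells (SD, n = 3 each). The ratio of the summed HSPG2 and AGRN level to the summed syndecan level was 0.258, 0.346 and 0.315 in Vector and 0.582, 0.826 and 0.607 in OE-MMP28 cells. All 3 OE-MMP28 values lay above the Vector values, and the ratio was given no test.

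**Figure D4:**
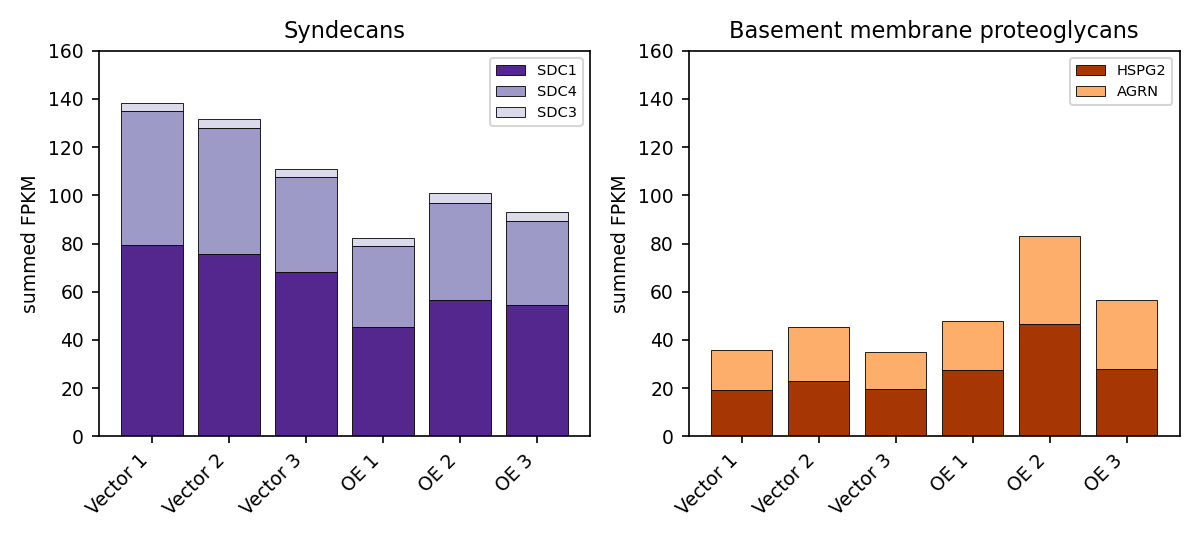
Summed FPKM per library of the syndecans and of HSPG2 with AGRN, stacked by gene, for the 3 Vector and 3 OE-MMP28 libraries. The syndecan bars are lower in OE-MMP28 (82.4 to 101 FPKM against 111 to 138) and the HSPG2 and AGRN bars higher (47.9 to 83.3 against 35.01 to 45.6).

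VCAN was the most abundant of the 10 genes. VCAN (ENSG00000038427, chr5:83471465-83582303, plus strand) measured 123, 149 and 136 FPKM in Vector and 146, 135 and 101 FPKM in OE-MMP28 cells, from 25189 to 34243 reads. The groups overlapped, and OE-MMP28 replicate 3 was the lowest library. The means were 136 ± 13.4 and 127 ± 23.5 FPKM (SD, n = 3 each), with a log2 fold change of -0.086 (SE 0.15, 95% interval -0.41 to 0.23, edgeR adjusted p = 0.730). This level placed VCAN at rank 210 of the tested genes, in libraries whose 6 fibroblast markers summed to at most 0.131 FPKM. Of the VCAN exon bases, 3.05% are shared with VCAN-AS1 on the opposite strand, which had 35 to 98 reads and a log2 fold change of -1.16 (edgeR adjusted p = 0.00742). Reads of the gene and its antisense partner may not be separated where they overlap. SRGN (ENSG00000122862, chr10:69088106-69104811) had 2 reads in OE-MMP28 replicate 2 and none in the other 5 libraries.

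The order of levels in Vector cells was VCAN, SDC1, SDC4, HSPG2, AGRN, GPC1 and SDC3, in FPKM. Only the ranges of HSPG2 and AGRN overlapped among neighbours in that order. In OE-MMP28 cells the order of means was the same, but the range of SDC4 overlapped that of HSPG2 and the range of HSPG2 overlapped that of AGRN. These levels divide by the length of all exons of a gene. Divided by the longest transcript instead, the Vector means were 26.2 FPKM for HSPG2, 26.2 FPKM for AGRN and 17.0 FPKM for GPC1, and the OE-MMP28 means were 43.0, 41.6 and 16.6 FPKM. On that divisor SDC4 stayed at 36.2 FPKM in OE-MMP28 cells, below HSPG2 and AGRN. The order of levels and the ratios between genes given above therefore depend on the divisor. Counts per gene do not separate isoforms such as those of AGRN and VCAN.

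The rest of the proteoglycan pathway was read from 4 lists: other core proteins, enzymes that build and edit heparan sulfate, proteins that shed, cleave or bind proteoglycans, and ligands and receptors that bind heparan sulfate. Of the 107 genes in these lists, 68 passed the low-count filter, and 17 were called higher and 6 lower, against 11.7% higher and 11.6% lower over all tested genes. Their median log2 fold change was 0.27, against 0.014 over all tested genes. Of the 23 called genes, 12 were called in each of the 6 fits that left out 1 library, and 6 under every one of the 19 alternatives. The other 11 lost their call without Vector replicate 3, and 10 of them also without OE-MMP28 replicate 2. These 11 were APLP2, CSPG5, SPOCK2, B3GALT6, HS3ST1, SYNJ2BP, ACTN4, EZR, FGFBP1, MET and DAG1. Against the median of their neighbours within 10 Mb, 7 of the 23 lost their call, namely APLP2, CSPG5, SPOCK2, XYLT1, SYNJ2BP, EZR and DAG1. The counts describe the lists and were given no test of their own.

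Among the other core proteins, 3 of 12 tested genes rose and 2 fell (11.7% and 11.6% over all tested genes), with a median log2 fold change of 0.025. CD44, the hyaluronan receptor, whose variant forms can carry heparan sulfate, measured 28.98, 25.2 and 25.2 FPKM in Vector and 49.4, 43.3 and 42.7 FPKM in OE-MMP28 cells. Every OE-MMP28 library was far above the Vector libraries, with a log2 fold change of 0.78 (edgeR adjusted p = 0.000585). APLP2, a relative of the amyloid precursor protein that can carry chondroitin sulfate, rose with a log2 fold change of 0.43 (edgeR adjusted p = 0.0287), below its neighbours' median of 0.58, and against that median it stood at -0.15 (edgeR adjusted p = 0.508). CSPG5, a chondroitin sulfate proteoglycan known from brain, also rose, at a low level, from 0.354 to 0.716 FPKM (log2 fold change 1.02, edgeR adjusted p = 0.0324). GPC2, a glypican, fell from a mean of 1.05 to 0.305 FPKM, with a log2 fold change of -1.75 (edgeR adjusted p = 0.00142). SPOCK2, a testican of the matrix, fell too (log2 fold change -1.58, edgeR adjusted p = 0.0327). It was near the floor, with 16, 20 and 21 reads in Vector and 2, 6 and 13 reads in OE-MMP28 libraries. COL18A1, also a basement membrane proteoglycan, went from 2.63 to 3.13 FPKM and did not pass (log2 fold change 0.27, edgeR adjusted p = 0.372). The glypicans GPC3 and GPC6 had no read in any library. GPC5, named after its values were seen, had 16, 4 and 9 reads in Vector and 0 in each OE-MMP28 library, and it did not pass the low-count filter.

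Of the 18 tested enzymes of heparan sulfate synthesis and editing, 3 rose and 2 fell, near the 11.7% and 11.6% over all tested genes, with a median log2 fold change of 0.24. The risers act at different steps. XYLT1, which starts the chain by adding xylose to the core protein, went from 2.72 to 4.49 FPKM (log2 fold change 0.73, edgeR adjusted p = 0.00261), and against its neighbours' median its log2 value was 0.47 (edgeR adjusted p = 0.0520). B3GALT6, which adds a galactose of the linker, rose by 0.70 on the log2 scale (edgeR adjusted p = 0.0113), and HS3ST1, a 3-O-sulfotransferase, by 0.58 (edgeR adjusted p = 0.0108). GLCE, the epimerase that turns glucuronic into iduronic acid, measured 7.61, 10.03 and 9.27 FPKM in Vector and 5.27, 5.16 and 4.33 FPKM in OE-MMP28 cells. Every OE-MMP28 library lay below the Vector libraries, with a log2 fold change of -0.86 (edgeR adjusted p = 0.000912). EXTL2, an exostosin-like glycosyltransferase, fell by 0.73 on the log2 scale (edgeR adjusted p = 0.00673). The chain polymerase EXT1 had a log2 fold change of 0.28 (edgeR adjusted p = 0.191) and the N-sulfotransferase NDST1 one of -0.40 (edgeR adjusted p = 0.0941), and neither passed.

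Of the 18 tested genes for shedding, cleavage and intracellular partners, 5 rose and 0 fell in edgeR (11.7% and 11.6% over all tested genes), with a median log2 fold change of 0.19. At an unadjusted p under 0.05, 1 gene was lower, the protease ADAM17 (log2 fold change -0.39, edgeR adjusted p = 0.107). Its 56 tested neighbours had a median log2 fold change of -0.41. While limma and DESeq2 also called 0 lower, 2 of the 19 alternatives called at least 1 lower. MMP7, matrilysin, a protease known to cut syndecan-1 from the cell surface, measured 105, 93.7 and 123 FPKM in Vector and 330.2, 309 and 331 FPKM in OE-MMP28 cells. The groups were far apart, with a log2 fold change of 1.61 (edgeR adjusted p = 2.5e-07). The median of its tested neighbours was 0.53, and against that median MMP7 stood at 1.08 (edgeR adjusted p = 3.94e-05). TIMP1, a metalloproteinase inhibitor, rose by 0.62 on the log2 scale (edgeR adjusted p = 0.0066), and the actin cross-linker ACTN4 by 0.57 (edgeR adjusted p = 0.00831). SYNJ2BP, a PDZ-domain protein, rose by 0.62 on the log2 scale (edgeR adjusted p = 0.0107) but stood at 0.11 against the median of its neighbours (edgeR adjusted p = 0.702). Next was ezrin (EZR), a membrane to actin linker, which rose by 0.44 on the log2 scale (edgeR adjusted p = 0.0269). SDCBP, the adaptor syntenin that binds syndecan tails, had a log2 fold change of -0.027 (edgeR adjusted p = 0.920). HPSE, the heparanase that cuts heparan sulfate, had one of 0.086 (edgeR adjusted p = 0.789).

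Of the 20 tested heparan sulfate-binding ligands and receptors, 6 rose and 2 fell (11.7% and 11.6% over all tested genes), with a median log2 fold change of 0.36. MDK, midkine, a growth factor that binds heparan sulfate, measured 183, 165 and 170.4 FPKM in Vector and 308, 393 and 433 FPKM in OE-MMP28 cells. The groups did not overlap, with a log2 fold change of 1.14 (edgeR adjusted p = 2.94e-05). TNC, the matrix protein tenascin-C, rose from 1.67 to 5.83 FPKM (log2 fold change 1.81, edgeR adjusted p = 3.14e-06). FGFBP1, a carrier of fibroblast growth factors, rose by 0.77 on the log2 scale (edgeR adjusted p = 0.0177) and CCN1, a matricellular protein, by 0.68 (edgeR adjusted p = 0.00264). On the same scale the HGF receptor MET rose by 0.47 (edgeR adjusted p = 0.0338) and DAG1, the dystroglycan that binds agrin and perlecan, by 0.45 (edgeR adjusted p = 0.0353). THBS1, thrombospondin-1, fell from 12.9 to 7.67 FPKM (log2 fold change -0.74, edgeR adjusted p = 0.0012), and VEGFA, the vascular growth factor, had a log2 fold change of -0.64 (edgeR adjusted p = 0.00532). The study itself reported the opposite direction for VEGFA, with higher expression by qRT-PCR in cells overexpressing MMP28. What lay behind this difference was not tested.

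**Figure D5:**
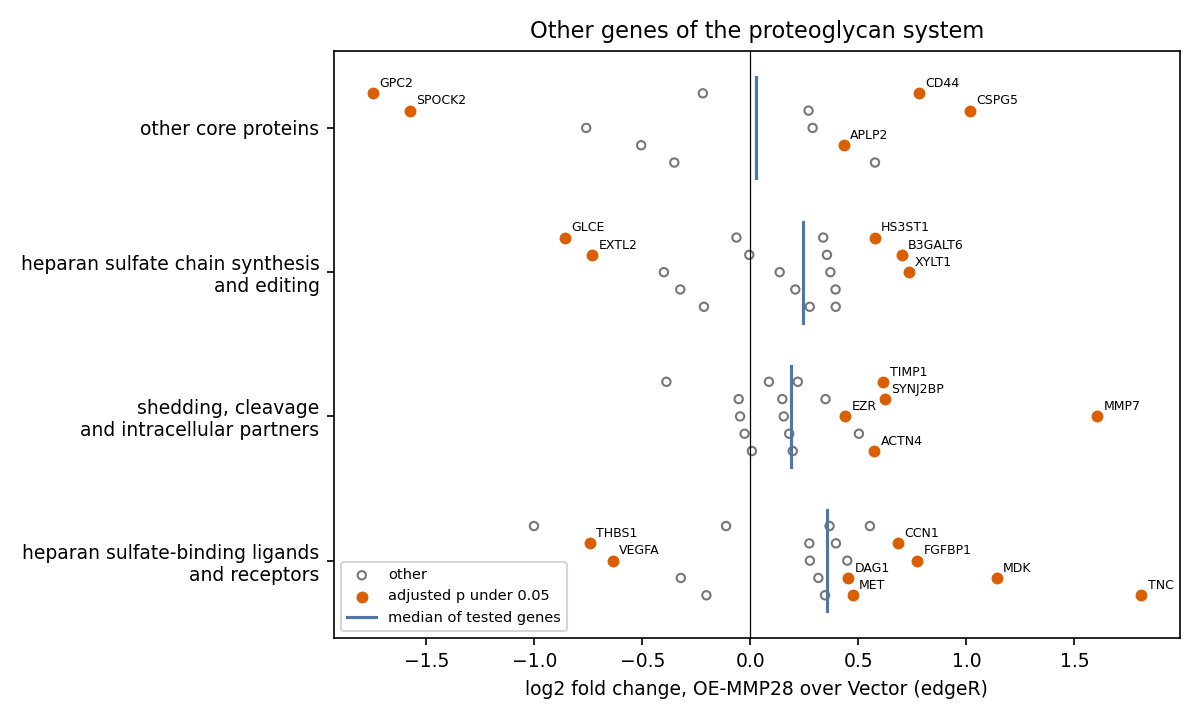
Log2 fold change (OE-MMP28 over Vector) of every tested gene in the 4 lists of proteoglycan-related genes, 1 point per gene, with genes of adjusted p under 0.05 named. MMP7 and TNC have the largest increases (1.61 and 1.81) and GPC2 and SPOCK2 the largest decreases (-1.75 and -1.58). Both decreases rest on few reads, 15 to 72 per library for GPC2 and 2 to 21 for SPOCK2.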

How the data were processed

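Total RNA of 6 AsPC-1 libraries, 3 Vector and 3 OE-MMP28, was sequenced after NEBNext library preparation, and samples were grouped by their treatment labels. The authors deposited read counts per gene and FPKM values in 1 table, and HISAT2 2.0.5 and featureCounts 1.5.0-p3 are named in the submitters' processing notes. The counts carried no normalization, and the FPKM values were scaled by the authors to library size and to the union of each gene's exons. The library sizes that the FPKM values imply differed from the counted totals by -2.0% to 2.0%, so they are not the plain totals. Strand and multi-mapping settings are not given in the sources used here, which affects genes with antisense partners. Gene IDs and coordinates matched GENCODE on GRCh38. The table also held the authors' own fold changes and p-values, which were not used.

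The main test was edgeR 4.0.16 in R 4.3.3 (quasi-likelihood F test, TMM scaling, filterByExpr at min.count 10 and min.total.count 15, no covariate, Benjamini-Hochberg over all tested genes, threshold 0.05), checked on simulated data with 200 changed genes. The study's methods named limma. Alternatives were DESeq2 1.42.0, limma 3.58.1 (voom, and log2(FPKM + 1) or log2(FPKM + 0.1) with a filter at 0.5 FPKM or none), other scalings and filters, a replicate block, mitochondrial genes left out, each library left out, and an offset equal to the median log2 fold change of tested genes within 10 Mb. An offset for GC content and length was chosen after seeing the data. Fold changes on log2(FPKM + 1) understate changes of low genes. No 2 libraries were alike within counting noise. Promoter windows came from RefSeq on GRCh38.p14.

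The 10 genes and the lists were chosen with earlier results of these data known. Named were all 10 genes, MMP28, list genes with an adjusted p under 0.05 (at most 10 a list), SDCBP, HPSE, CD44, GPC3, GPC6, EXT1 and NDST1, and genes that overlap a member in the annotation. GPC5, COL18A1 and ADAM17 were named after their values were seen. Cell type markers were named where they check the cells.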

Additional observations from a re-analysis of the deposited data

How the results depend on the processing

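Over 19 alternatives, HSPG2 kept its sign and passed in 15, AGRN in 13 and SDC1 in 17. Of the proteoglycan genes, 2 were called higher and 1 lower. None was called higher in limma on log2(FPKM + 1), on log2(FPKM + 0.1) or without a filter (0, 0 and 0), and 0 to 2 were called higher when 1 library was left out, with 0 without OE-MMP28 replicate 2 and 1 without Vector replicate 3 or OE-MMP28 replicate 3. With SDC4 added, 2 were called lower with DESeq2 size factors (SDC4 adjusted p = 0.0472), upper-quartile scaling (0.0332), a minimum of 1 CPM in 3 libraries (0.0446), DESeq2 (0.0374), mitochondrial genes left out (0.0440) and the GC and length offset (0.0141), and 1 to 2 with 1 library left out. In limma without a filter (SDC1 adjusted p = 0.0787) and against the local median, 0 were called lower. Values that changed sign were SDC1 against the local median (0.019), GPC1 against the local median (0.29), without Vector replicate 1 (0.12) and without OE-MMP28 replicate 1 (0.13), and VCAN without OE-MMP28 replicate 3 (0.053). Leave-one-out values ran from -0.58 to -0.42 for SDC1, from 0.42 to 0.85 for HSPG2, from 0.44 to 0.87 for AGRN, from -0.14 to 0.13 for GPC1, from -0.21 to 0.053 for VCAN and from 0.69 to 1.05 for MMP28, whose one lost call was in limma without a filter (0.84, adjusted p = 0.0903). In the 4 other lists, 17 genes were called higher and 6 lower, with 9, 10 and 4 higher in the 3 limma fits on FPKM and 2 lower without a filter. With 1 library left out, 7 to 21 were higher (7 without Vector replicate 3, 8 without OE-MMP28 replicate 2) and 5 to 7 lower. Over all tested genes, 1795 were higher and 1784 lower in edgeR. The limma fits on FPKM gave 1009, 1000 and 362 higher and 965, 970 and 308 lower, the local median 1101 higher, and leaving out 1 library 985 to 1916 higher and 1044 to 1949 lower. The fit with the replicate block gave log2 fold changes of -0.51 for SDC1, 0.68 for HSPG2 and 0.66 for AGRN, and 1844 genes higher and 1841 lower. Deviations from the group means correlated at -0.088 to 0.017 between same-numbered libraries and at -0.15 to 0.17 between differently numbered ones. No effect shared by same-numbered libraries was seen, but these values cannot show whether such libraries were prepared together. The block changed no call among the 7 tested proteoglycan genes. With 3 libraries a group, the 95% interval of the log2 fold change still ran from -0.24 to 0.46 for SDC3. For GPC1 it ran from -0.40 to 0.35 and for VCAN from -0.41 to 0.23. The causes of these differences were not tested.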
